A study of Mus musculus with 3 samples.

Results

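The genes described here are 10 immediate early genes of the AP-1 and EGR groups (Fos, Fosb, Jun, Junb, Jund, Egr1, Egr2, Egr3, Atf3 and Nr4a1), out of 33696 genes counted. They were chosen by symbol and all 10 were found. Mouse bone marrow was profiled by droplet 3' single-cell RNA sequencing in 3 libraries, made from wild-type mice, from mice with a heterozygous knockout of Fabp4 and from mice with a homozygous one. Fabp4 encodes a fatty acid-binding protein best known from fat cells and macrophages, and the series asks whether leukaemia stem cells need it more than normal blood stem cells do. Each library pooled marrow of 2 mice, and no file assigns a cell to a mouse. The labels used here give no age, strain, deleted exon or leukaemia status.

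Immediate early genes are transcribed within minutes of a stimulus, before any new protein is made, mostly through serum response factor with its ternary complex partners and through CREB. Fos and Jun family proteins pair through leucine zippers to form AP-1, EGR proteins are zinc finger transcription factors, ATF3 is a stress-induced relative of the AP-1 proteins, and NR4A1 is an orphan nuclear receptor. In blood cells these genes respond to growth factors, cytokines and microbial products, and they are also known to respond to the enzymatic and mechanical steps by which tissue is turned into single cells.

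Promoter sequence was available for 8 of the 10 genes in the RefSeq table of GRCm38.p6. The 8 stretches below are shown because these genes were all lowest in the wild-type library and differ in the CRE half-site TGACG, the core that CREB and ATF proteins read. Each is the 120 bases upstream of a start, 5′ to 3′ on the gene's strand, with TGACG (or CGTCA, its reverse complement) or the octamer TGACNTCA in capitals.
Fos, chr12:85473770-85473889, plus strand: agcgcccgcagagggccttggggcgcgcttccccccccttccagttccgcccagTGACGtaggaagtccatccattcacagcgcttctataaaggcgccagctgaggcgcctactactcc
Fosb, chr7:19310046-19310165, minus strand: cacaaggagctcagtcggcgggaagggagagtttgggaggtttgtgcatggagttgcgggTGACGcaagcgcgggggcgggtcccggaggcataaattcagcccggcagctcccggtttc
Jun, chr4:95052223-95052342, minus strand: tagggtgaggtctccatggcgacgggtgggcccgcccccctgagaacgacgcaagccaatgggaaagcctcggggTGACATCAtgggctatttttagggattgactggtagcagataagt
Junb, chr8:84978749-84978868, minus strand: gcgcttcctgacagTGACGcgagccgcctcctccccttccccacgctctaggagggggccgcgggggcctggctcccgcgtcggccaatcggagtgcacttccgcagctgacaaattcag
Jund, chr8:70697619-70697738, plus strand: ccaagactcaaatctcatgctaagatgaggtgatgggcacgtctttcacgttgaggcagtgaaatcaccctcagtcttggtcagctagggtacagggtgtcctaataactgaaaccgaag
Egr2, chr10:67537749-67537868, plus strand: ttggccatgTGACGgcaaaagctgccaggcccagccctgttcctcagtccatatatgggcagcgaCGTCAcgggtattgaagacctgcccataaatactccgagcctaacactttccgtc
Atf3, chr1:191183334-191183453, minus strand: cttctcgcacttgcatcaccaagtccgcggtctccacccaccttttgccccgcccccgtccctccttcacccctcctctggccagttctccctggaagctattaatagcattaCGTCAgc
Nr4a1, chr15:101266726-101266845, plus strand: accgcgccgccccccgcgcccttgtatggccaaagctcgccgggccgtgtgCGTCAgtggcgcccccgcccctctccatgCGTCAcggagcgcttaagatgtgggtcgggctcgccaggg

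Over the 250 bases upstream of the start, on both strands, TGACG was found in 6 of these 8 genes (Fos, Fosb, Junb, Egr2, Atf3 and Nr4a1) and in 19.8% of all 27025 genes of the table. Nr4a1 held 4 matches, of which 2 lie in the stretch shown. Jund held neither TGACG nor TGACNTCA upstream of the start in this table. Its stretch ends at 70697738, ahead of the Jund gene start at 70698949 in the GENCODE M21 annotation. The bases just upstream of that later start were not searched. The stretches of Atf3, Nr4a1 and Egr2 lie inside the genes as annotated there, whose 5′ ends are at 191218039, 101254269 and 67535475. For Atf3 and Nr4a1 the bases just upstream of those ends were not searched. Jun held no TGACG but was the 1 gene of the 8 with TGACNTCA, which 8.55% of all genes hold. A CArG box, the core of the serum response element, was found in Egr2, against 1.62% of all genes, and the TATA box TATAAA in Fos, against 14.3%. Egr2 has 5 starts in the table and the 1 shown was picked because it holds matches. A match describes letters and is no evidence that a factor binds there.

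The libraries differed in make-up before any of these genes was considered. Barcodes were kept with at least 500 UMIs (unique molecular identifiers, 1 per captured RNA molecule), at least 200 genes and under 10% mitochondrial UMIs. This left 5604 wild-type, 7957 heterozygous and 4318 homozygous cells with 46093025 to 72880881 UMIs per library and medians of 7658 to 10058 UMIs per cell. The mitochondrial limit removed 40.6%, 25.8% and 46.8% of barcodes in that order. Fabp4 itself gave 50, 38 and 5 UMIs (0.745, 0.521 and 0.108 UMIs per 1000000), so it was lowest in the homozygous library. Y-linked RNA was at 263 UMIs per 1000000 in the heterozygous library and 9.44 in the wild-type one, and Xist at 208 and 1281, with 1230 in the homozygous library, so the sexes of the pooled mice differ between libraries. Libraries shared 21 to 26 cell barcodes in pairs and 0 in all 3.

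Cells were placed in classes by marker genes, and each class is named "-like" for that reason. The wild-type library held 1181 stem and progenitor-like cells, 1237 granulocyte-monocyte progenitor-like (GMP-like) cells, 688 immature and 203 mature neutrophil-like cells, 1243 monocyte-like cells, 102 conventional dendritic-like cells and 22 T cell-like cells. The heterozygous library held 455, 982, 2644, 1564, 1003, 442 and 16 of these, and the homozygous library 150, 960, 358, 185, 1477, 86 and 26. No class was given to 840, 780 and 1050 cells, and in the homozygous library these were shallow, with a median of 2053.5 UMIs. Each class is a range of a marker score. From 2.33% to 20.4% of a class's cells in a library lay near the limit in the 6 larger classes, and mature neutrophil-like cells still carried a median of 110.0 UMIs per 10000 of the immature neutrophil list beside 92.4 of their own. T cell-like cells had the natural killer genes Gzma and Xcl1 among their leading genes.

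Levels are given as CPM, the UMIs of a gene per 1000000 UMIs of a library or class. With 1 library per genotype there is no spread between animals, so no test was made. Intervals in brackets are 95% exact intervals that cover counting error only, and every difference compares these libraries and not the genotypes. Where 3 values follow each other, they stand in the order wild type, heterozygous, homozygous.

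The FOS proteins are the AP-1 subunits that cannot pair with themselves. Fos was at 503, 1207 and 788 CPM over all kept cells. Fosb, its close relative, was at 324, 712 and 373 CPM. Both were therefore lowest in the wild-type and highest in the heterozygous library, and for Fosb the homozygous level was near the wild-type one (log2 ratio 0.20 [0.17 to 0.23]) where the heterozygous level was not (1.13 [1.11 to 1.16]).

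The JUN proteins pair with FOS proteins or with each other. JUNB is often an antagonist of JUN, and JUND is the most constantly expressed of the family. Jun was at 982, 1687 and 1384 CPM. Junb was at 643, 963 and 681 CPM. Jund was at 838, 1410 and 1077 CPM. The order of the libraries was the same for all 3 JUN genes, with the smallest homozygous difference for Junb (0.08 [0.06 to 0.10]) and the largest for Jun (0.50 [0.48 to 0.51]).

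Of the EGR genes, Egr1, the best known early growth response gene, had 59.3, 188 and 82.0 CPM. Egr2, which acts in myeloid and T cell differentiation, had 0.938, 2.96 and 2.56 CPM, from 63, 216 and 118 UMIs. Egr3, another zinc finger factor of the group, had 3.23, 5.78 and 3.51 CPM, from 217, 421 and 162 UMIs. Egr1 carried one of the widest differences of the set in the heterozygous library (1.66 [1.61 to 1.72] against wild type), and the homozygous interval of Egr3 included 0 (0.12 [-0.18 to 0.42]).

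Atf3 was at 191, 269 and 331 CPM, and it was the only member whose level over all kept cells was highest in the homozygous library. Nr4a1 was at 33.5, 102 and 46.8 CPM, a log2 ratio of 1.61 [1.54 to 1.68] for heterozygous and 0.48 [0.40 to 0.57] for homozygous against wild type. Wild type was the lowest library for all 10 genes.

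Summed over the 10 genes, the levels were 3579, 6550 and 4770 CPM. The summed log2 ratio was 0.87 [0.86 to 0.88] for heterozygous against wild type, and 0.41 [0.41 to 0.42] for homozygous against wild type. The homozygous library was below the heterozygous one by -0.46 [-0.46 to -0.45]. The comparisons share libraries, so they are set side by side and their likeness is not counted as a result.

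All 10 genes passed the minimum of 20 UMIs in the libraries compared. Against wild type, 10 of 10 were higher in the heterozygous library with an interval above 0, where 22.8% of the 17412 genes tested were. At least 2-fold higher were 5 (Fos, Fosb, Egr1, Egr2 and Nr4a1), where 5.74% of genes were. The members' median log2 ratio was 0.99 and that of all genes -0.14. In the homozygous library 9 of 10 had an interval above 0, where 33.0% of 17034 genes did, and 1 (Egr2) was at least 2-fold higher, where 4.18% were. The median was 0.47 for the members and 0.06 for all genes. None had an interval below 0 in either comparison, where 43.4% of genes did in the heterozygous and 22.4% in the homozygous one. Homozygous against heterozygous, 8 of 10 had an interval below 0, where 20.9% of 17026 genes did, and 1 (Atf3) above 0, where 47.6% did, with medians of -0.56 and 0.22.

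These summed values depend on which cells are weighed. With each of the 6 larger classes weighted equally, the homozygous log2 ratio to wild type was 0.22 in place of 0.41, and that to the heterozygous library -0.71 in place of -0.46. With each cell weighted equally the homozygous log2 ratio to the heterozygous library was -0.20, and that of Jun turned from -0.29 to 0.26. In cells with Y-linked RNA and no Xist, the heterozygous log2 ratio to wild type was 0.50, on 74 wild-type cells.

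**Figure D1:**
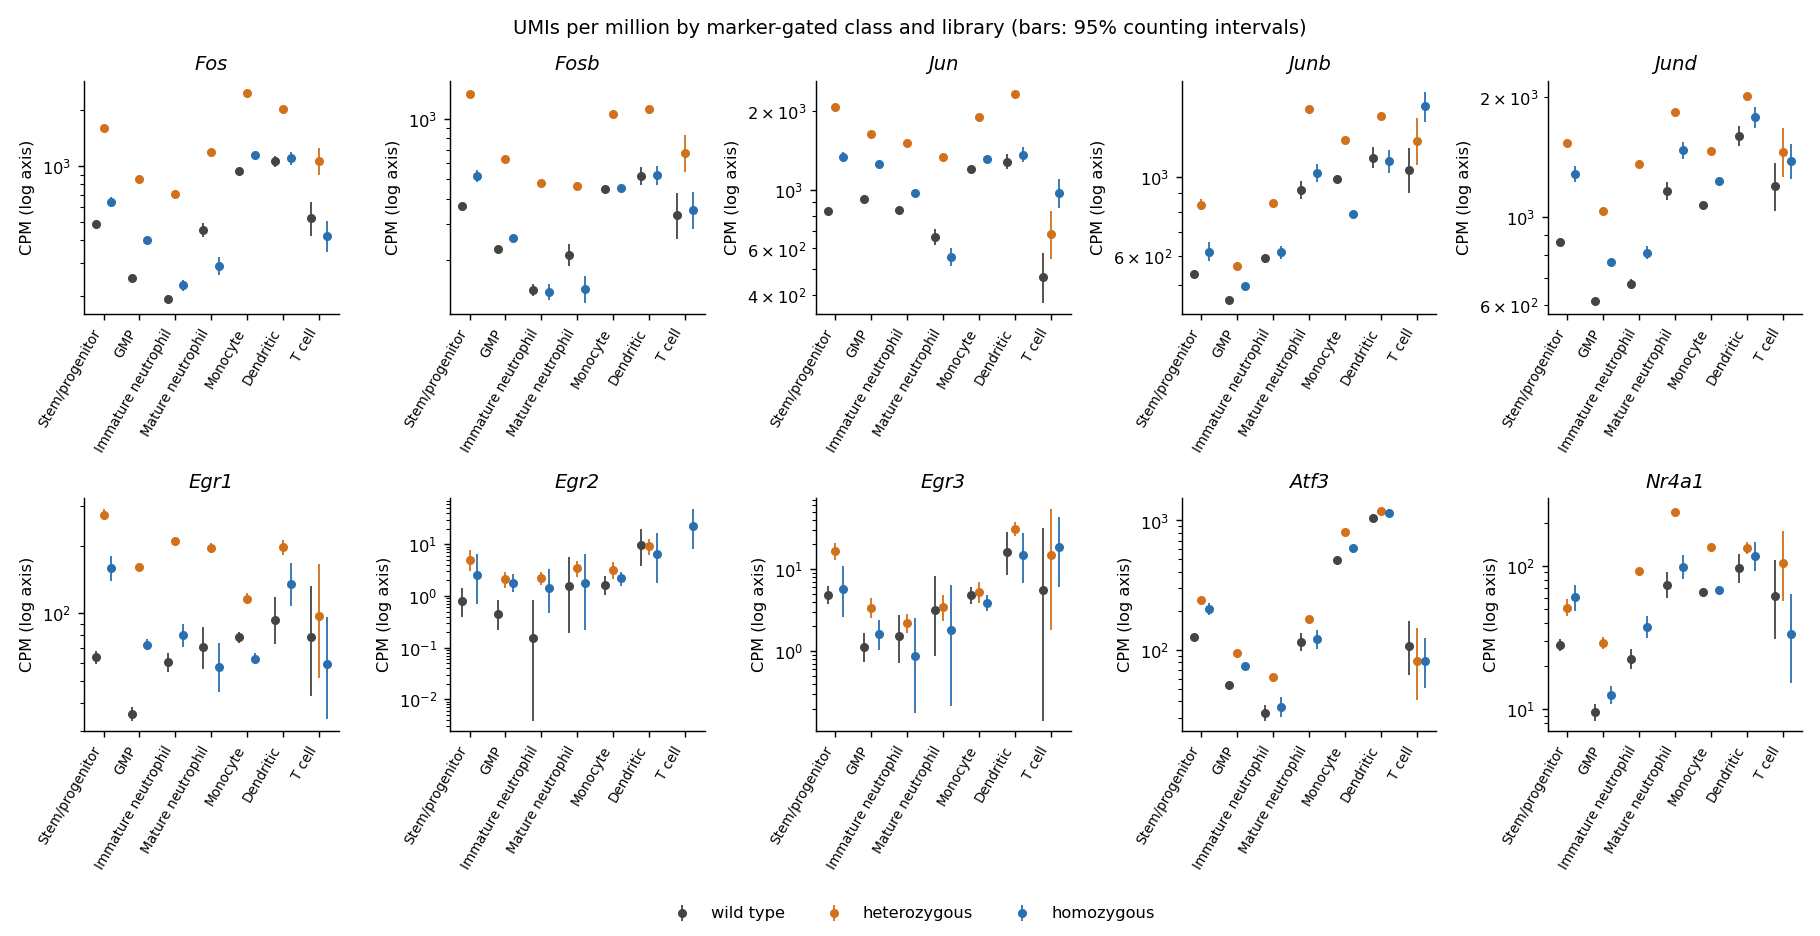
CPM (log axis) of each of the 10 genes in 7 marker-gated classes, with wild-type (grey), heterozygous (orange) and homozygous (blue) libraries side by side and 95% counting intervals as bars; points at 0 UMIs are not drawn, and GMP stands for granulocyte-monocyte progenitor-like. Orange points lie above grey ones for all members but Egr2 in dendritic-like and Atf3 in T cell-like cells, and blue points lie close to grey ones in monocyte-like cells (summed 5672 against 5289 CPM).

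Within classes, members had their own profiles. In wild-type cells each of the 10 genes was highest in dendritic-like cells among the 6 larger classes. That class held only 102 wild-type cells, and the share of all genes highest in it was not computed. The lead was narrow for some members, as for Egr1 at 93.7 CPM against 78.1 in monocyte-like cells. Fos was at 1058 CPM there and 938 in monocyte-like cells, and at 193 in immature neutrophil-like cells, its lowest class. Atf3 had the steepest profile of the abundant members, with 1047 CPM in dendritic-like, 493 in monocyte-like and 32.6 in immature neutrophil-like wild-type cells. Jun was flatter, from 1284 CPM in dendritic-like to 665 in mature neutrophil-like cells.

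Egr1 was 93.7 CPM in wild-type dendritic-like and 35.7 in GMP-like cells. Egr3 was 16.3 and 1.14 CPM in the same classes. Nr4a1 was 96.5 CPM in dendritic-like, 73.7 in mature neutrophil-like and 9.56 in GMP-like wild-type cells. The neighbours Egr1 in mature neutrophil-like (70.5 CPM) and stem and progenitor-like cells (63.7 CPM) had overlapping counting intervals, as did Jun in immature neutrophil-like (839 CPM) and stem and progenitor-like cells (830 CPM).

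The class with the highest level differed between libraries for some members. Fosb was highest in stem and progenitor-like cells of the heterozygous library (1325 CPM) and in dendritic-like cells of the other 2 (522 and 525 CPM). Junb was highest in heterozygous mature neutrophil-like cells (1550 CPM), and Nr4a1 too (239 CPM). Egr1 was highest in stem and progenitor-like cells in both knockout libraries, at 276 and 159 CPM against 63.7 in wild type.

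Stem and progenitor-like cells, the marrow cells from which the other classes arise, carried the widest summed difference from wild type among the 7 classes in both knockout libraries. Between the knockout libraries the summed log2 ratio was -0.72 in these cells and wider in mature (-0.89) and immature neutrophil-like cells (-0.85). The summed levels were 3317, 7949 and 4833 CPM. All 10 genes were lowest in wild type here. Fos stood at 490, 1600 and 642 CPM, Jun at 830, 2065 and 1339, and Egr1 at 63.7, 276 and 159. Egr1 was higher by a log2 ratio of 2.11 [1.98 to 2.24] in heterozygous and 1.32 [1.11 to 1.52] in homozygous than in wild-type cells.

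Nr4a1 behaved differently from Fos in these cells. Its levels were 28.0, 50.9 and 60.1 CPM, from 392, 214 and 95 UMIs, so it was highest in the homozygous library, with an interval against the heterozygous one that included 0 (0.24 [-0.12 to 0.59]). In the heterozygous library 10 of 10 members had an interval above 0 against wild type (17.6% of genes did), with a median of 1.51 where all genes had 0.00. In the homozygous library 8 of the 9 members measured did (14.4% of genes), with a median of 0.56 where all genes had 0.06.

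GMP-like cells, marked by primary granule genes such as Mpo and Elane, gave a like order. Summed levels were 2567, 5008 and 3346 CPM. Fos was 251, 855 and 402 CPM and Egr1 35.7, 161 and 72.7 CPM. All 10 genes were lowest in wild type and highest in the heterozygous library. Intervals above 0 were found for 10 of 10 members in the heterozygous comparison with wild type (19.6% of genes) and for 9 of 10 in the homozygous one (24.0% of genes).

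In immature neutrophil-like cells the homozygous library came closer to wild type, at 2924 against 2561 CPM summed, and the heterozygous one stood at 5260. Fosb was 142, 481 and 138 CPM, so the homozygous level was close to that of wild type. Nr4a1, by contrast, was 22.4, 92.2 and 37.5 CPM, higher in both knockout libraries. Of the members, 9 of 10 had an interval above 0 in the heterozygous comparison with wild type (12.4% of genes), and 5 of the 8 measured in the homozygous one (12.6% of genes).

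Mature neutrophil-like cells split the members. Fos was 454, 1186 and 289 CPM. Fosb was 211, 466 and 143 CPM, and Jun 665, 1336 and 558 CPM. These 3 genes were lowest in the homozygous library, with log2 ratios to wild type of -0.65 [-0.85 to -0.45], -0.57 [-0.86 to -0.28] and -0.25 [-0.40 to -0.10].

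Other members went the other way in the same mature neutrophil-like cells. Jund was 1160, 1832 and 1467 CPM, Junb 917, 1550 and 1024 CPM and Nr4a1 73.7, 239 and 98.1 CPM. Their homozygous log2 ratios to wild type were 0.34 [0.24 to 0.44], 0.16 [0.04 to 0.28] and 0.41 [0.0019 to 0.83]. Intervals above 0 were thus found for 3 of 8 measured members (8.69% of genes) and below 0 for 3 (16.9% of genes), and the sum of 3762 against 3671 CPM had an interval that included 0 (0.04 [-0.03 to 0.10]). Against wild type the heterozygous library had 8 of 10 above 0 (8.14% of genes). There were 203 wild-type and 185 homozygous cells in this class.

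Monocyte-like cells had high levels in every library, with sums of 5289, 9239 and 5672 CPM. Fos was 938, 2481 and 1144 CPM and Atf3 493, 814 and 608 CPM, with both knockout libraries above wild type. Junb was 987, 1270 and 785 CPM and Egr1 78.1, 116 and 62.8 CPM, with the homozygous library lowest. Against wild type, 4 of 10 homozygous members had an interval above 0 (30.6% of genes) and 2, Junb and Egr1, below 0 (17.9% of genes). The heterozygous comparison had 9 of 10 above 0 (19.6% of genes).

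Dendritic-like cells, which present antigen on MHC class II, had 6855, 10512 and 7278 CPM summed. Atf3 was nearly level over the libraries at 1047, 1191 and 1139 CPM, while Fosb was 522, 1114 and 525. Of the members, 9 of 10 had an interval above 0 in the heterozygous comparison with wild type (9.21% of genes) and 2 of 9 measured in the homozygous one (9.20% of genes). The homozygous median of 0.09 was close to the 0.04 of all genes.

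The Atf3 order over all kept cells did not hold within classes. In each of the 6 larger classes Atf3 was higher in the heterozygous than in the homozygous library, for example 243 against 208 CPM in stem and progenitor-like cells. The interval of this ratio lay below 0 in 5 of the 6 classes. Over all kept cells it was lower, 269 against 331 CPM. Monocyte-like cells, rich in Atf3, were 34.2% of homozygous and 12.6% of heterozygous kept cells, and immature neutrophil-like cells, poor in it, 8.29% and 33.2%. Unassigned cells, with Atf3 at 208, 310 and 268 CPM, were 24.3% of homozygous and 9.80% of heterozygous kept cells. The part of class make-up in the order over all kept cells was not tested.

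T cells are of interest because they arise outside the myeloid lineage. The T cell-like cells were few (22, 16 and 26). Summed levels were 3806, 5434 and 4912 CPM, a log2 ratio to wild type of 0.51 [0.36 to 0.67] in the heterozygous and 0.37 [0.23 to 0.50] in the homozygous library. Fos was 522, 1066 and 420 CPM and Fosb 331, 678 and 353 CPM in T cell-like cells, so both were again highest in the heterozygous library. Jun was 466, 678 and 973 CPM and Junb 1044, 1260 and 1574 CPM, both highest in the homozygous library. Of 8 members measured, 4 had an interval above 0 in the heterozygous comparison with wild type (9.34% of genes) and 2, Jun and Junb, in the homozygous one (8.84% of genes).

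**Figure D2:**
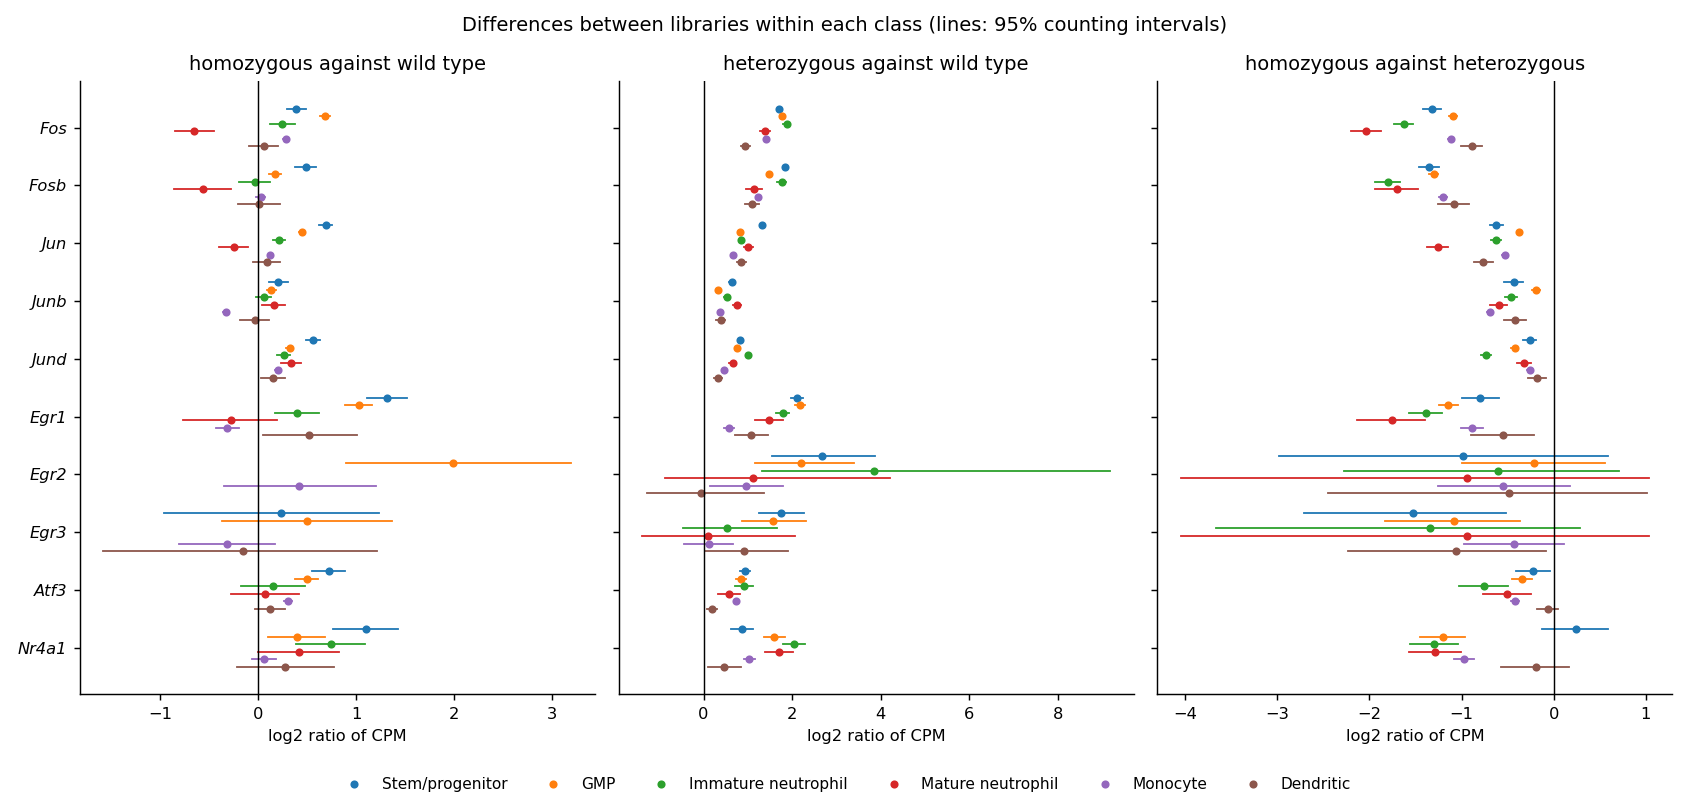
Log2 ratios of CPM (x axis) of each gene within the 6 larger classes (colours) for the 3 comparisons, with 95% counting intervals as lines; genes under 20 UMIs in the libraries compared are not drawn. In the middle panel 1 point, Egr2 in dendritic-like cells, lies left of 0, and in the left panel the mature neutrophil-like points of Fos (-0.65), Fosb (-0.57) and Jun (-0.25) lie left of 0 while those of Jund lie right of it in every class.

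The share of cells in which a gene is seen depends on depth, so each cell with at least 2000 UMIs was thinned to 2000. Fos was then detected in 52.0%, 76.3% and 62.5% of 5376, 7411 and 3647 cells; without thinning the shares were 85.2%, 94.1% and 84.3%. Egr1 was detected in 10.6%, 26.7% and 14.3% after thinning, and in 31.4%, 55.6% and 35.5% before. Shallower cells left out numbered 228, 546 and 671. No class here is known to lack these genes, so no background share from free RNA could be set.

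At this fixed depth the heterozygous difference was spread over many cells. At least 5 of the 10 genes were seen together in 29.0%, 56.9% and 41.0% of thinned cells. In GMP-like cells these shares were 12.3%, 41.1% and 21.4%, and in monocyte-like cells 53.7%, 84.4% and 60.3%. The median thinned cell held 6, 12 and 9 member UMIs in the same order, and the tenth percentile 2, 5 and 3.

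The genes also varied together between cells of a class within a library, to a modest degree. Pearson r was taken over cells on ln(1 + UMIs per 10000) in each of 18 groups, the 6 larger classes in 3 libraries; cells of a group share their library and free RNA and differ in depth. The pair Fosb-Jun had the highest median r of the 45 pairs, 0.39 over the 18 groups (0.014 to 0.50), followed by Fos-Jun at 0.35 and Junb-Jund at 0.32. Fos-Atf3 had a median of 0.30 and Fosb-Egr1 of 0.27. Pairs with Egr2, which few cells showed, had medians of at most 0.054.

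After thinning to 2000 UMIs these medians were 0.27 for Fosb-Jun, 0.26 for Fos-Jun, 0.18 for Junb-Jund, 0.18 for Fos-Atf3 and 0.15 for Fosb-Egr1. In monocyte-like cells the median over the 45 pairs was 0.18, 0.14 and 0.16 without thinning and 0.12, 0.087 and 0.099 with it. In GMP-like cells it was 0.12, 0.15 and 0.15 without thinning and 0.042, 0.073 and 0.074 with it. The 66 pairs of 12 upstream kinases and factors had medians of 0.0068, 0.026 and 0.021 in the same monocyte-like cells. In T cell-like cells the member median was 0.10, 0.29 and 0.097 over 22, 16 and 26 cells, and -0.029, 0.037 and -0.017 after thinning.

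**Figure D3:**
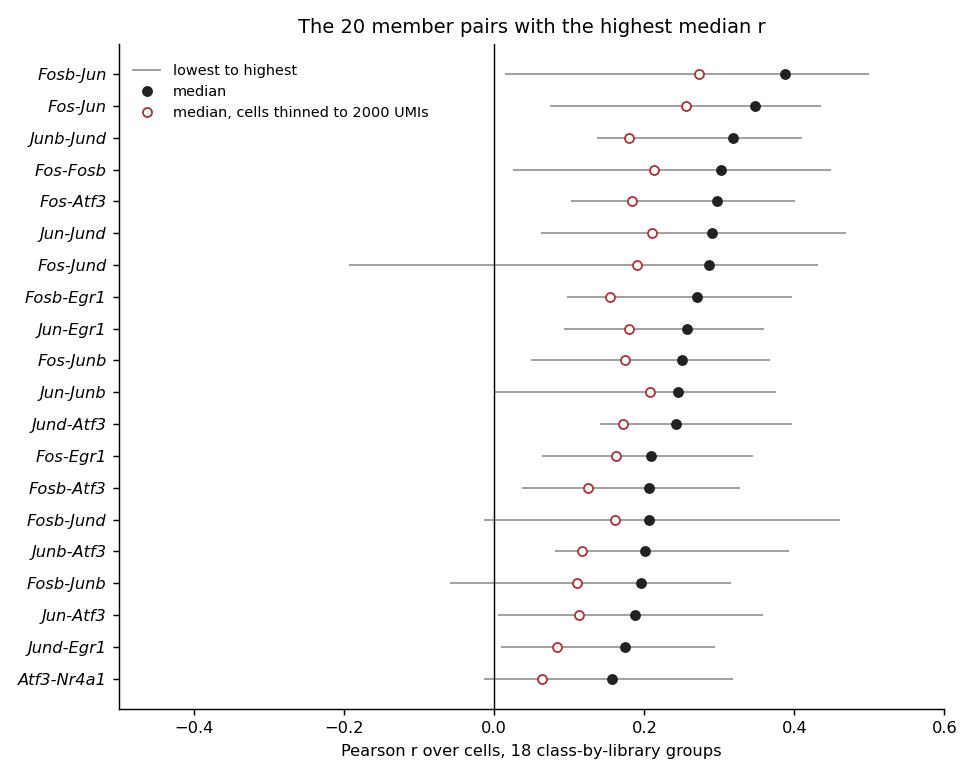
Pearson r over cells (x axis) for the 20 pairs of members with the highest median r; grey lines run from the lowest to the highest of 18 class-by-library groups, black points are medians and open red points are medians after thinning each cell to 2000 UMIs. Fosb-Jun leads at 0.39, and thinning lowers its median to 0.27.

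Cells whose membranes leak lose cytoplasmic RNA and keep mitochondrial RNA, so levels were also set out by mitochondrial share, barcodes over the 10% limit included. Jun was higher at a higher share in every library up to 25%: 824, 925, 1414 and 2368 CPM in wild-type barcodes with shares of 0 to 2%, 2 to 5%, 5 to 10% and 10 to 25%. It went from 1478 to 3796 CPM in heterozygous and from 1033 to 4070 CPM in homozygous barcodes between the first and the fourth of these bins. Fosb went from 286 to 659, from 564 to 1525 and from 318 to 736 CPM over the same bins. Barcodes of 10 to 25% had medians of only 2226.5, 1947 and 1772 UMIs, and class make-up also differs between bins.

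The other members differed in this between libraries. Atf3 was 279 CPM in the first and 149 in the fourth bin in wild type and 411 and 238 in the homozygous library, but 234 and 312 in the heterozygous one. Junb went from 789 to 600 CPM in wild type and from 1119 to 910 in the heterozygous library, and from 721 to 871 in the homozygous one. Fos went from 606 to 537, from 1107 to 1302 and from 716 to 1100 CPM. In the homozygous library 9 of the 10 members were thus higher in the fourth bin than in the first, Atf3 being the exception, with Egr1 at 64.5 and 239 CPM and Jund at 1148 and 1594. In wild type Fos, Junb, Egr3, Atf3 and Nr4a1 were lower in the fourth bin. The share of all genes higher or lower in that bin was not computed, so these counts describe the members only.

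Over all barcodes, both knockout libraries were above wild type at a matched mitochondrial share. Between 0 and 2% the summed log2 ratio to wild type was 0.72 [0.71 to 0.74] in the heterozygous and 0.20 [0.18 to 0.22] in the homozygous library. Between 5 and 10% it was 0.83 [0.81 to 0.85] and 0.68 [0.66 to 0.70]. In GMP-like cells of 0 to 2% it was 1.02 [0.96 to 1.08] and 0.32 [0.26 to 0.39], and in stem and progenitor-like cells of 2 to 5% it was 1.22 [1.20 to 1.25] and 0.69 [0.64 to 0.73]. In mature neutrophil-like cells of 0 to 2% it was 0.89 [0.84 to 0.93] and 0.0019 [-0.066 to 0.070], and in monocyte-like cells of 0 to 2% it was 0.83 [0.81 to 0.86] and 0.06 [0.03 to 0.08], so the homozygous library stood near wild type there. The part of tissue handling in the levels was not tested beyond these values.

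**Figure D4:**
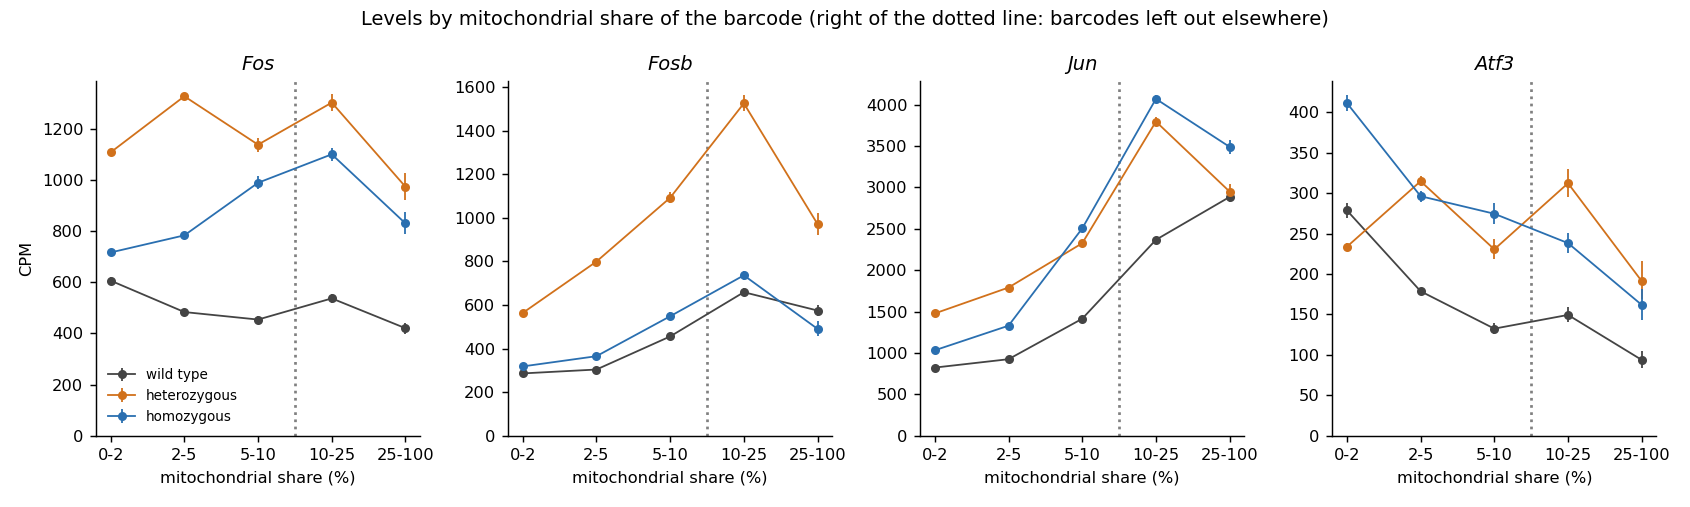
CPM of 4 members (y axis) by mitochondrial share of the barcode (x axis, bins in percent) in the 3 libraries, with 95% counting intervals. Bins right of the dotted line are left out of results on kept cells, but not of the alternative without a cell filter. Jun is higher from bin to bin in every library up to the 10 to 25% bin (2368, 3796 and 4070 CPM), and Atf3 is lower in that bin than in the 0 to 2% bin in wild type and homozygous (149 against 279 and 238 against 411 CPM).

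The sexes of the pooled mice offered a split within libraries. In the heterozygous library the summed level was 6103 CPM in 4507 cells with Y-linked RNA and no Xist and 8165 CPM in 1148 cells with Xist and no Y-linked RNA, a log2 ratio of -0.42 [-0.43 to -0.41]. Within classes this gap was smaller, from -0.33 in stem and progenitor-like to -0.06 in monocyte-like cells. Among cells with Xist only, the heterozygous and homozygous libraries stood at log2 ratios of 1.20 [1.19 to 1.21] and 0.42 [0.41 to 0.43] to wild type. Among Xist-only cells of single classes the heterozygous ratio ran from 0.75 in dendritic-like to 1.51 in stem and progenitor-like cells. Sex, mouse and cell class cannot be told apart by these labels.

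Lists of related genes were set beside the members over all kept cells. The shares of all genes with an interval above and below 0 were 22.8% and 43.4% in the heterozygous and 33.0% and 22.4% in the homozygous comparison with wild type, with medians of -0.14 and 0.06. Of 20 other immediate early genes, 16 were higher in the heterozygous than in the wild-type library with an interval above 0 and 3 lower, with a median of 0.65. Egr4 (1.90) and Klf2 (1.21), a factor that keeps lymphocytes and monocytes quiescent, had the highest values, and Myc (-0.71) and Nr4a2 (-0.56), a relative of Nr4a1, the lowest. In the homozygous library 12 of 20 were higher and 5 lower, the latter near the share of all genes, with a median of 0.14. Egr4 (2.01) and Klf4 (0.83), a factor of monocyte differentiation, led, and Dusp2 (-0.71) and Ier3 (-0.41) were lowest. This homozygous difference did not hold in every class. In monocyte-like cells 5 of 19 measured genes had an interval above 0 (30.6% of all genes) and 12 below (17.9%), with a median of -0.17 where all genes had 0.08. Mature neutrophil-like cells had 4 of 17 above (8.69%) and 6 below (16.9%), with medians of -0.17 and -0.12. The list median was highest in stem and progenitor-like cells, at 0.19 where all genes had 0.06.

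Homozygous against heterozygous, 3 of these 20 had an interval above 0 and 16 below, where 47.6% and 20.9% of all genes did. Myc (0.72) and Klf4 (0.68) were highest, and Ier3 (-1.07) and Zfp36 (-1.04), which encodes a protein that destabilizes cytokine mRNAs, lowest.

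The AP-1 relatives, 12 genes, had a median of 0.11 in the heterozygous and 0.06 in the homozygous comparison with wild type, where all genes had -0.14 and 0.06. In the heterozygous one 5 had an interval above 0 and 3 below, with Fosl1, which encodes FRA1, at 1.43 and Batf3, a factor of dendritic cell development, at 0.83 [-0.11 to 1.84] on top, and Atf7 (-0.37) and Batf2 (-0.17 [-0.54 to 0.21]) at the bottom. The shares of all genes were 22.8% and 43.4%. In the homozygous one 6 were above and 4 below (33.0% and 22.4% of all genes), with Batf3 at 2.03 and Batf2 at 0.42, and with Fosl1 at -0.68 and Atf2 at -0.32. Between the knockout libraries Fosl1 had the lowest ratio (-2.11, then Jdp2 at -0.48) and Batf3 the highest (1.20, then Batf2 at 0.59).

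Upstream of the members, 12 kinases and factors had medians of -0.04 and -0.02 against wild type. In the heterozygous comparison 5 had an interval above 0 and 5 below (22.8% and 43.4% of all genes), led by Mapk3 (0.53), which encodes the kinase ERK1, and Mrtfa (0.37), with Mapk9 (-0.70) and Elk3 (-0.68) lowest. In the homozygous one 3 were above and 3 below (33.0% and 22.4% of all genes), with Mapk3 (0.34) and Elk1 (0.21 [-0.05 to 0.47]) highest, and Mapk9 was at -0.16. Between the knockout libraries Elk3 (0.77) and Mapk9 (0.54) were highest and Mrtfa (-0.24) and Mapk3 (-0.19) lowest.

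Heat shock genes, which are also known to respond to tissue handling, had medians over all kept cells close to those of all genes, -0.18 and 0.01 against -0.14 and 0.06. Single genes lay on both sides of these medians, and the part of tissue handling in their values was not tested. Of 10, 4 had an interval above and 5 below 0 in the heterozygous comparison with wild type, where 22.8% and 43.4% of all genes did, and 4 and 1 in the homozygous one, where 33.0% and 22.4% did. Hspa1a, the inducible HSP70, was highest at 0.78 and 0.60, followed by Hspb1 (0.46) in the heterozygous and Hspa8 (0.39) in the homozygous comparison. Hspe1 (-1.07), a mitochondrial chaperone, and Hsph1 (-1.05) were lowest in the first, and Hspb1 (-0.56 [-1.18 to 0.04]) and Hsph1 (-0.15 [-0.32 to 0.01]) in the second. The 1 heat shock gene with an interval below 0 in the homozygous comparison was Dnaja1 (-0.07 [-0.10 to -0.04]), named after its value was seen. Between the knockout libraries Hspe1 (1.05) and Hspd1 (1.02) were highest and Hspb1 (-1.02) and Dnajb1 (-0.32) lowest. The EGR corepressors Nab1 and Nab2, which bind EGR proteins, had log2 ratios to wild type of 0.34 and 0.68 in the heterozygous and 0.32 and 0.57 in the homozygous library, and -0.02 and -0.11 between the knockout libraries. Heat shock medians lay further from all genes in some classes. In the few T cell-like cells, 4 of 6 measured had an interval above 0 in homozygous against wild type (8.84% of genes), with medians of 0.71 and -0.06 for all genes. The heterozygous medians there were -0.02 and -0.06. In homozygous stem and progenitor-like cells 4 of 9 were above 0 (14.4% of genes), with medians of 0.22 and 0.06. In homozygous monocyte-like cells the medians were 0.07 and 0.08.

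Over the 18 class-by-library sums, the genes whose level was most like the members' mean profile were Nfkbib (r = 0.93), Tnfaip3 (0.90), Senp2 (0.89), Rel (0.89) and Coq10b (0.89), among 6021 genes ranked. Tnfaip3 ranged from 30.6 to 216 CPM over these sums and Rel from 103 to 622. The sums share libraries and classes, and the median UMIs per cell had r = -0.43 with the same profile, so these values describe the 18 sums only.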

How the data were processed

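The deposited files hold UMI counts per gene and barcode, whole numbers that were not normalized, made with Cell Ranger 8.0.1 per the file headers. The submitters' processing notes list Cell Ranger, STAR and mm10, without roles, and the 3' kit per the labels' protocols. The annotation release and whether counting used strand are not given in the sources used here. Of 33696 gene IDs, 1735 are not in GENCODE M21. In that annotation Jun, Junb, Jund and Atf3 overlap a gene on the opposite strand. Egr1 was not looked up there. The members and lists were chosen with earlier results of these data known.

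From the counts, cells were kept with at least 500 UMIs, 200 genes and under 10% mitochondrial UMIs. Deposited totals were 54160590 to 78426908 UMIs per library. A cell took the class whose markers had the highest mean z-score (capped at 5), above 0.3, with at least 3 markers detected, among 17 marker lists. Doublets were kept, and removing the top-scoring 423 wild-type, 682 heterozygous and 280 homozygous cells by Scrublet was an alternative. UMIs were summed per library and class. Intervals are 95% exact Poisson for a level, Clopper-Pearson for a share and exact conditional for a ratio, and a gene needed 20 UMIs in the libraries compared. Other alternatives were 2 cell filters, another denominator, centring, weights per cell and per class, sex-linked RNA, thinning depth, Leiden clusters and gene minimums; leaving out unassigned cells was added after the data were seen.

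Named genes were all 10 members, the 2 highest and 2 lowest of each other list, and the 5 most similar genes with a mean of at least 20 CPM. A gene that this rule names is not reported here. On simulated counts for the homozygous against wild-type comparison, run on 17040 genes, intervals covered 95.8% of unshifted genes, 93% at log2 1 and 95% at log2 2. These counts were Poisson draws, as the intervals assume, without spread between cells or mice. The run therefore checks the interval code only and not how well the intervals suit these data. Tools were Python 3.11.15, numpy 2.4.6, scipy 1.17.1, pandas 2.3.3, scanpy 1.11.5 and matplotlib 3.10.9. No p-value was computed.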

Additional observations from a re-analysis of the deposited data

Results flagged for a closer look

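Under the homozygous comparison with wild type, 5 members were higher in 1 class and lower in another, with counting intervals on either side of 0. The difference between classes itself was not tested. The share of all genes with such a split was not computed, so the count describes the members only. Fos had a log2 ratio of 0.68 in GMP-like and -0.65 in mature neutrophil-like cells. Fosb had 0.48 in stem and progenitor-like and -0.57 in mature neutrophil-like cells. Jun had 0.69 and -0.25 in the same classes. Junb had 0.21 in stem and progenitor-like and -0.33 in monocyte-like cells, and Egr1 had 1.32 and -0.31 there. The heterozygous comparison gave no such member.

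Barcodes with a mitochondrial share of 10% to 25%, left out of the comparisons, carried Jun at 2368 CPM (wild type), 3796 CPM (heterozygous) and 4070 CPM (homozygous). Kept cells of these libraries had 982, 1687 and 1384 CPM.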

How the results depend on the processing

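Summed log2 ratios in the order homozygous against wild type, heterozygous against wild type and homozygous against heterozygous were 0.41, 0.87 and -0.46. They kept their sign under every alternative run, but 28 of the alternative values fell outside the counting interval of the main value and 2 within it. They were 0.47, 0.81 and -0.34 without a cell filter; 0.37, 0.89 and -0.52 with at least 1000 UMIs and under 5% mitochondrial UMIs; 0.39, 0.77 and -0.39 with mitochondrial, ribosomal and haemoglobin UMIs left out of totals. They were 0.36, 1.02 and -0.68 after centring on all genes, 0.61, 0.80 and -0.20 with equal weight per cell and 0.22, 0.94 and -0.71 with equal weight per class. Without unassigned cells, an alternative chosen after seeing the data, they were 0.37, 0.88 and -0.51. In cells with Y-linked RNA only they were 0.31, 0.50 and -0.18. Cells with Xist only gave 1.20 for the second and -0.78 for the third, and cells without top-scoring doublets 0.89 and -0.47; the first was within its interval in both. The cause was not tested. Of single members, Jun homozygous against heterozygous turned from -0.29 to 0.26 with equal weight per cell. Egr3 homozygous against wild type, whose interval included 0, was -0.07 with the stricter filter and -0.10 without unassigned cells; no other member changed sign in 70 values per comparison. With Leiden clusters in place of gates, the summed level was highest in the heterozygous and lowest in the wild-type library in 7 of 7 classes, as with gates. With no minimum of UMIs, 13.6% of genes were at least 2-fold higher in homozygous than wild type, in place of 4.18%. No paired analysis was possible because genotype is the only factor in the labels, which pair no libraries. With 1 library per genotype none could be left out. Depth limits Egr2 and Egr3, which had 63 and 217 UMIs in wild-type kept cells.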
